A study of Caenorhabditis elegans with 8 samples.

Results

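The 9 genes described here encode filament proteins of the sarcomeres of body wall muscle in *C. elegans*: the myosin heavy chains *unc-54* and *myo-3*, paramyosin *unc-15*, twitchin *unc-22*, tropomyosin *lev-11*, troponin T *mup-2* and the troponin I genes *unc-27*, *tni-1* and *tni-3*. A gene was taken if the platform annotation gives a probe set to its symbol alone, and all 9 of 9 had exactly 1 such probe set, among 25478 genes with a probe set of their own. Their transcripts were compared between *dyf-1(mn335)*, a strain that cannot build the outer segments of its sensory cilia, and the wild-type strain N2. Each strain had 4 arrays of total RNA from whole, age-synchronised hermaphrodites on day 1 of adulthood. Each sample pools many worms, and the mutation is present in all tissues of the mutant strain. Values are log2 expression values that the authors obtained by robust multi-array averaging (RMA), and the number of arrays limits their precision. In whole-worm RNA, fewer cells of a type and less RNA per cell cannot be told apart, and neither can body wall muscle and the other muscles that use some of these genes.

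The sarcomere is built of overlapping thick and thin filaments. Thick filaments consist of myosin wound around a core of paramyosin, with myosin A (*myo-3*) in the middle and the main myosin B (*unc-54*) along both arms. Thin filaments consist of actin with tropomyosin and the troponin complex, in which troponin I holds contraction off until calcium binds troponin C. In the worm these muscles lie in bands under the epidermis and bend the body during crawling.

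Wild-type replicate 4 stood apart from its strain. Over all 29317 probe sets it correlated with wild-type replicates 1 to 3 at 0.958 to 0.974 and with mutant replicates 1 to 3 at 0.976 to 0.978, whereas the first 3 wild-type arrays correlated with one another at 0.987 to 0.992. Mutant replicate 4 also stood apart from its strain. It correlated with mutant replicates 1 to 3 at 0.978 to 0.984, whereas these 3 arrays correlated with one another at 0.993 to 0.994. The 2 replicate 4 arrays correlated with each other at 0.967. The mutated gene itself, *dyf-1*, was at 6.85, 7.02, 7.30 and 7.48 in the mutant arrays and at 6.26, 6.01, 5.61 and 6.07 in the wild-type arrays, so that for this gene wild-type replicate 4 lay with its own strain. For *dyf-1* the log2 fold change was 1.18 (adjusted p = 0.0031 from limma), higher in the mutant. Since the allele need not remove the transcript, this checks the labels only by the separation of the strains. The labels name no batch or date, so the origin of these differences was not tested, and calls are given over all 8 arrays and again without wild-type replicate 4.

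The troponin I gene *tni-1* was the member that rose in *dyf-1(mn335)*. Its log2 values were 9.80, 9.86, 9.81 and 10.15 in mutant replicates 1 to 4 and 8.26, 7.98, 8.52 and 8.48 in wild-type replicates 1 to 4. The strains did not overlap, and wild-type replicate 4 lay among the other arrays of its strain. The means were 9.91 ± 0.16 (SD, n = 4) and 8.31 ± 0.25 (SD, n = 4), a log2 fold change of 1.60 (standard error 0.16, 95% interval 1.23 to 1.96) or 3.02-fold. It passed the threshold of an adjusted p under 0.01 in limma (adjusted p = 0.000387). In the two-sided exact permutation test p was 0.0286, which no comparison of 4 arrays with 4 can go below. Without wild-type replicate 4 the log2 fold change was 1.65 (adjusted p = 0.000171 from limma).

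The paralogue *unc-27*, which encodes the main troponin I of body wall muscle, had a narrow range. It was at 11.91, 11.91, 11.89 and 12.03 in the mutant arrays and at 12.13, 12.12, 12.17 and 11.94 in the wild-type arrays. The first 3 wild-type arrays lay above all mutant arrays, while wild-type replicate 4 lay among the mutant arrays. The log2 fold change was -0.16 (standard error 0.12, 95% interval -0.43 to 0.11, adjusted p = 0.35 from limma), and -0.21 without wild-type replicate 4 (adjusted p = 0.17 from limma).

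The last troponin I gene, *tni-3*, was at 8.08, 8.03, 8.17 and 8.88 in mutant replicates 1 to 4 and at 8.63, 8.50, 8.76 and 8.43 in wild-type replicates 1 to 4. The first 3 mutant arrays were below all wild-type arrays and mutant replicate 4 was above them all. Over the 8 arrays the log2 fold change was -0.29 (standard error 0.20, 95% interval -0.75 to 0.16, adjusted p = 0.31 from limma), and it was -0.34 without wild-type replicate 4 (adjusted p = 0.24 from limma). With both replicate 4 arrays left out it was -0.54 and *tni-3* passed as lower (adjusted p = 0.0074 from limma).

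**Figure D1:**
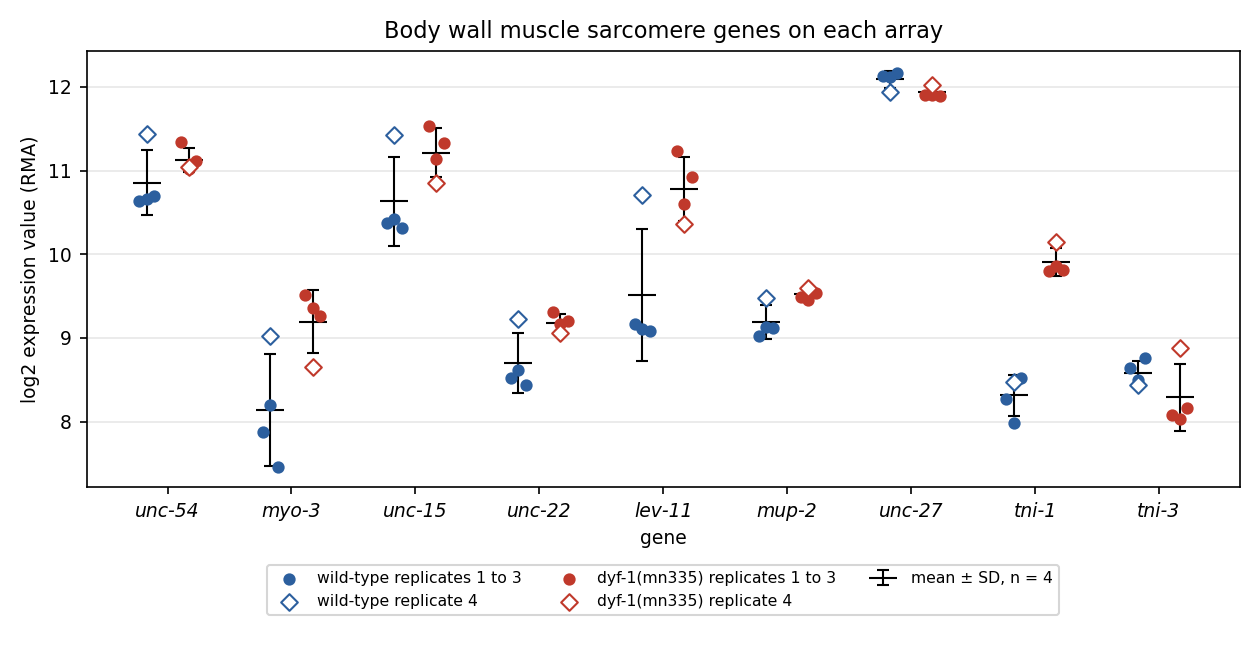
Log2 expression value (y axis) of the 9 sarcomere genes (x axis) on each array, with wild-type in blue and *dyf-1(mn335)* in red, filled points for replicates 1 to 3, open diamonds for replicate 4 and bars for the mean ± SD of 4 arrays. The 4 mutant arrays of *tni-1* lie between 9.80 and 10.15, above all wild-type arrays, and in *unc-54*, *unc-15* and *lev-11* wild-type replicate 4 lies far above the other wild-type arrays.

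To compare paralogues of the same kind of filament, the log2 values of 4 pairs of genes were subtracted within each array, so that a shift common to both genes cancels. This difference shows unequal change and says nothing about which transcript was more abundant. *tni-1* minus *tni-3* was 1.73, 1.84, 1.64 and 1.27 in the mutant arrays and -0.37, -0.52, -0.24 and 0.05 in the wild-type arrays. The strains did not overlap, and the change of *tni-1* exceeded that of *tni-3* by 1.89 on the log2 scale (standard error 0.17; exact permutation test, p = 0.0286, adjusted p = 0.0381 over the 4 pairs). *unc-27* minus *tni-1* changed by -1.75 (standard error 0.15; exact permutation test, p = 0.0286, adjusted p = 0.0381 over the 4 pairs) and did not overlap either. *unc-27* minus *tni-3* averaged 3.65 ± 0.34 (SD, n = 4) over the mutant arrays and 3.51 ± 0.08 (SD, n = 4) over the others, and this difference of 0.14 (standard error 0.17) was within the spread between arrays (exact permutation test, p = 0.51, adjusted p = 0.51). The troponin I pairs share genes and are not independent tests. The pairs were also chosen with earlier results known, and those with *tni-1* largely restate its rise. For them p = 0.0286 is the smallest that the exact permutation test allows.

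Among the myosin heavy chains, *unc-54* minus *myo-3* was 1.83, 1.66, 1.85 and 2.39 in the mutant arrays and 2.76, 2.46, 3.24 and 2.41 in the wild-type arrays. All mutant arrays were lower, but the replicate 4 arrays of the strains lay close to each other. The change was -0.78 (standard error 0.25; exact permutation test, p = 0.0286, adjusted p = 0.0381 over the 4 pairs). After cyclic loess normalisation between arrays this change was -0.74 (exact permutation test, p = 0.0571, adjusted p = 0.0762). The changes of *unc-27* minus *tni-1* and *tni-1* minus *tni-3* were then -1.71 and 1.91, each still at the smallest possible p of 0.0286 in the exact permutation test. Their adjusted p became 0.0571, because with only 2 of 4 pairs at that p the adjustment cannot give less.

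**Figure D2:**
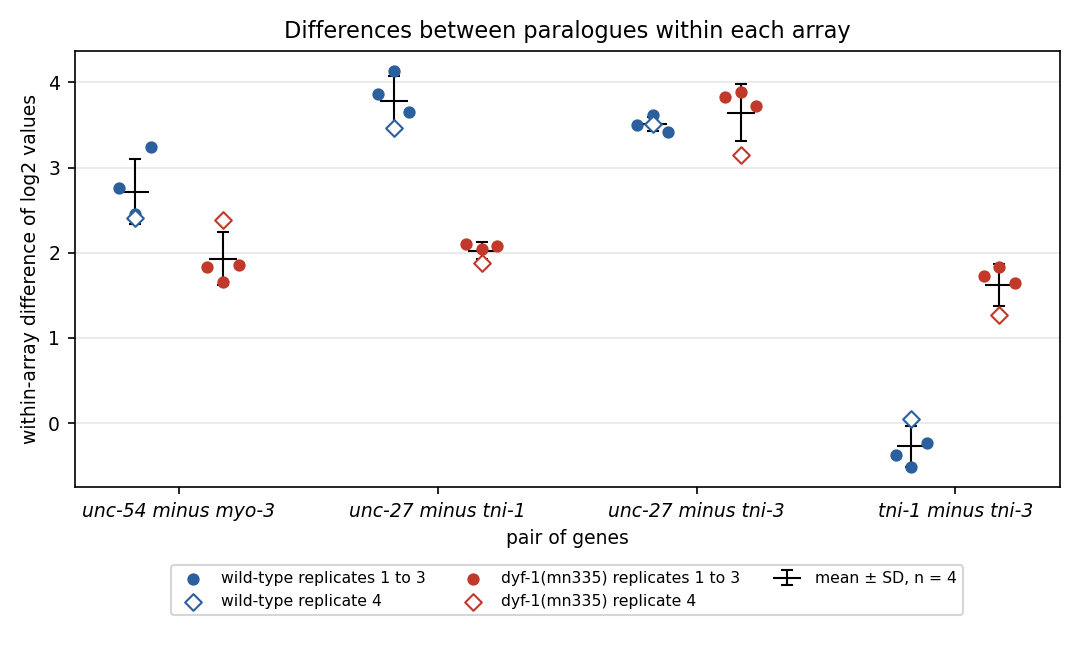
Within-array difference of log2 values (y axis) for the 4 pairs of paralogues (x axis), with wild-type in blue, *dyf-1(mn335)* in red, open diamonds for replicate 4 and bars for the mean ± SD of 4 arrays. *tni-1* minus *tni-3* lies between 1.27 and 1.84 in the mutant and between -0.52 and 0.05 in wild-type. *unc-27* minus *tni-3* overlaps because of mutant replicate 4, at 3.15.

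The thick filament genes did not pass over 8 arrays. *myo-3* was at 9.51, 9.35, 9.26 and 8.65 in the mutant arrays and at 7.87, 8.20, 7.45 and 9.03 in the wild-type arrays. The mutant arrays lay above wild-type replicates 1 to 3, and wild-type replicate 4 lay within the mutant range. The log2 fold change of *myo-3* was 1.06 (standard error 0.33, 95% interval 0.32 to 1.79, adjusted p = 0.042 from limma), and 1.35 without wild-type replicate 4, where it passed (adjusted p = 0.0026 from limma).

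Paramyosin *unc-15* was at 11.54, 11.14, 11.33 and 10.85 in the mutant and at 10.38, 10.42, 10.31 and 11.42 in wild-type. As in *myo-3*, the wild-type array inside the mutant range was replicate 4. The log2 fold change was 0.58 (standard error 0.27, 95% interval -0.02 to 1.18, adjusted p = 0.14 from limma), and 0.84 without this array, where *unc-15* passed (adjusted p = 0.0047 from limma).

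Myosin B *unc-54* was at 11.34, 11.02, 11.11 and 11.04 in the mutant and at 10.63, 10.66, 10.69 and 11.44 in wild-type. Here wild-type replicate 4 was the highest of all 8 arrays. The log2 fold change was 0.27 (standard error 0.20, 95% interval -0.18 to 0.72, adjusted p = 0.34 from limma). Without wild-type replicate 4 it was 0.46 and still did not pass (adjusted p = 0.018 from limma), although the strains then did not overlap.

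Twitchin *unc-22*, a giant kinase of the titin family that binds the thick filament, was at 9.30, 9.17, 9.20 and 9.05 in the mutant and at 8.52, 8.61, 8.44 and 9.23 in wild-type. Wild-type replicate 4 lay inside the mutant range and the other wild-type arrays lay below it. The log2 fold change was 0.48 (standard error 0.18, 95% interval 0.06 to 0.90, adjusted p = 0.086 from limma), and 0.66 without wild-type replicate 4, where it passed (adjusted p = 0.0030 from limma). A second probe set names *unc-22* together with the gene *ZK617.7* and was not used.

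Tropomyosin *lev-11* had the largest distance between wild-type replicate 4 and the other wild-type arrays among the 9 members. It was at 11.23, 10.60, 10.92 and 10.36 in the mutant arrays, at 9.17, 9.10 and 9.08 in wild-type replicates 1 to 3 and at 10.70 in wild-type replicate 4. The first 3 wild-type arrays lay close together and below all mutant arrays. Over 8 arrays the log2 fold change of *lev-11* was 1.27 (standard error 0.37, 95% interval 0.44 to 2.10, adjusted p = 0.035 from limma), and without wild-type replicate 4 it passed at 1.66 (adjusted p = 0.00042 from limma). The gene makes several tropomyosin isoforms for different muscles, which a single probe set does not separate.

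Troponin T *mup-2*, which ties troponin to tropomyosin, was at 9.49, 9.45, 9.54 and 9.60 in the mutant and at 9.02, 9.12, 9.12 and 9.48 in wild-type. Wild-type replicate 4 again lay inside the mutant range. The log2 fold change was 0.33 (standard error 0.14, 95% interval 0.02 to 0.64, adjusted p = 0.11 from limma), and 0.43 without this array (adjusted p = 0.015 from limma).

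Over all 8 arrays, 1 of the 9 members was called higher and none lower (limma, adjusted p under 0.01), where 6.56% of all probe sets were higher and 3.46% lower. All 9 had mean log2 values of at least 5, where calls were more frequent. In a fit of the 15520 probe sets with such means, 1404 were higher and 786 lower, and 1 member was again called higher. With no adjustment, 5 members were higher and none lower at p under 0.05, where 5574 of the 29317 probe sets were higher and 5852 lower. The log2 fold changes were above 0 for 7 members and below 0 for *unc-27* and *tni-3*, with a median of 0.48 against -0.04 over all probe sets. The arrays of the strains did not overlap in 1 member, *tni-1*, which was higher, where 12.6% of all probe sets had all mutant arrays higher and 11.1% all mutant arrays lower. When each array was centred on its median, the median over all probe sets moved to -0.19 and that of the members to 0.33. All 9 kept their direction, and *tni-1* was still the member called.

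Without wild-type replicate 4, 5 of the 9 members were called higher (*tni-1*, *lev-11*, *myo-3*, *unc-22* and *unc-15*) and none lower, at a background of 13.3% higher and 12.9% lower. The strains did not overlap in 8 of the 9, with 7 higher and *unc-27* lower, where 23.0% of all probe sets had all mutant arrays higher and 22.8% all mutant arrays lower. The 1 call among 9 genes over 8 arrays is near the background, and the share called without wild-type replicate 4 lies above it. With mutant replicate 4 left out instead, *tni-1* alone was called.

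**Figure D3:**
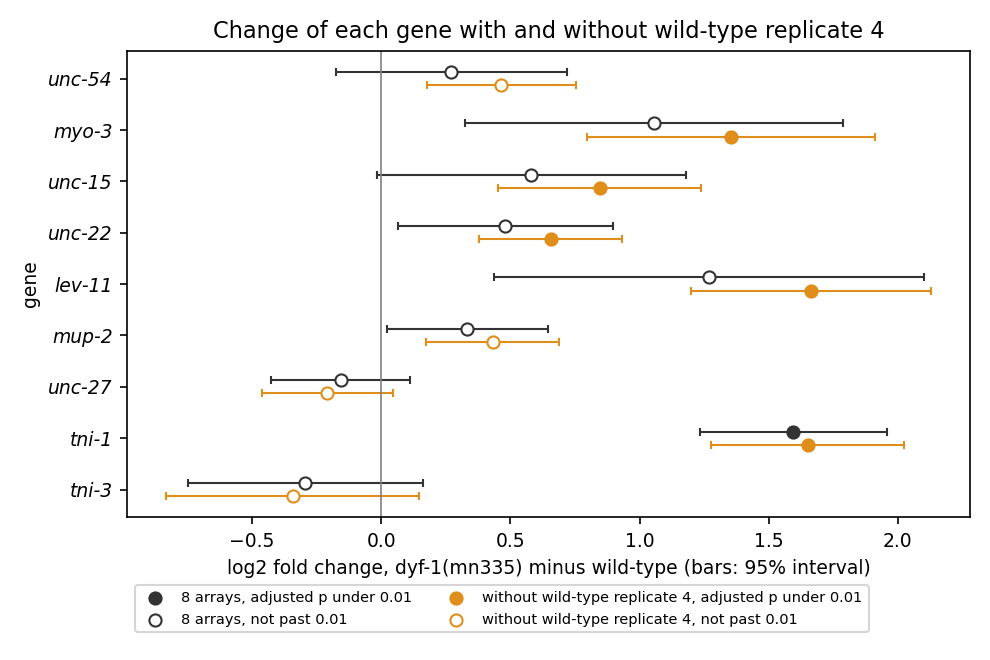
Log2 fold change of *dyf-1(mn335)* minus wild-type (x axis) of the 9 genes (y axis) from limma, with bars for the 95% interval, in black over 8 arrays and in orange without wild-type replicate 4. Filled points passed an adjusted p under 0.01, which are *tni-1* over 8 arrays and *myo-3*, *unc-15*, *unc-22*, *lev-11* and *tni-1* without that array.

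The members differed in how they placed the replicate 4 arrays. Against the mean of the other 3 wild-type arrays, wild-type replicate 4 was higher by 1.59 in *lev-11*, 1.18 in *myo-3*, 1.05 in *unc-15*, 0.77 in *unc-54*, 0.70 in *unc-22* and 0.39 in *mup-2*. Mutant replicates 1 to 3 were higher by 1.80, 1.53, 0.97, 0.49, 0.70 and 0.41 in the same genes. In *tni-1* wild-type replicate 4 was higher by 0.22 and mutant replicates 1 to 3 by 1.57. Wild-type replicate 4 lay within the range of the mutant arrays in 7 of the 9 members, against 45.1% of all probe sets. One of the 7 was *tni-3*, where all wild-type arrays lay within the mutant range, which mutant replicate 4 widened. Within the range of wild-type replicates 1 to 3, wild-type replicate 4 lay in *tni-1* alone, against 28.6% of all probe sets. Mutant replicate 4 was lower than mutant replicates 1 to 3 by 0.72 in *myo-3*, 0.56 in *lev-11* and 0.48 in *unc-15*. In *tni-3* it was higher by 0.79 and in *tni-1* by 0.32.

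**Figure D4:**
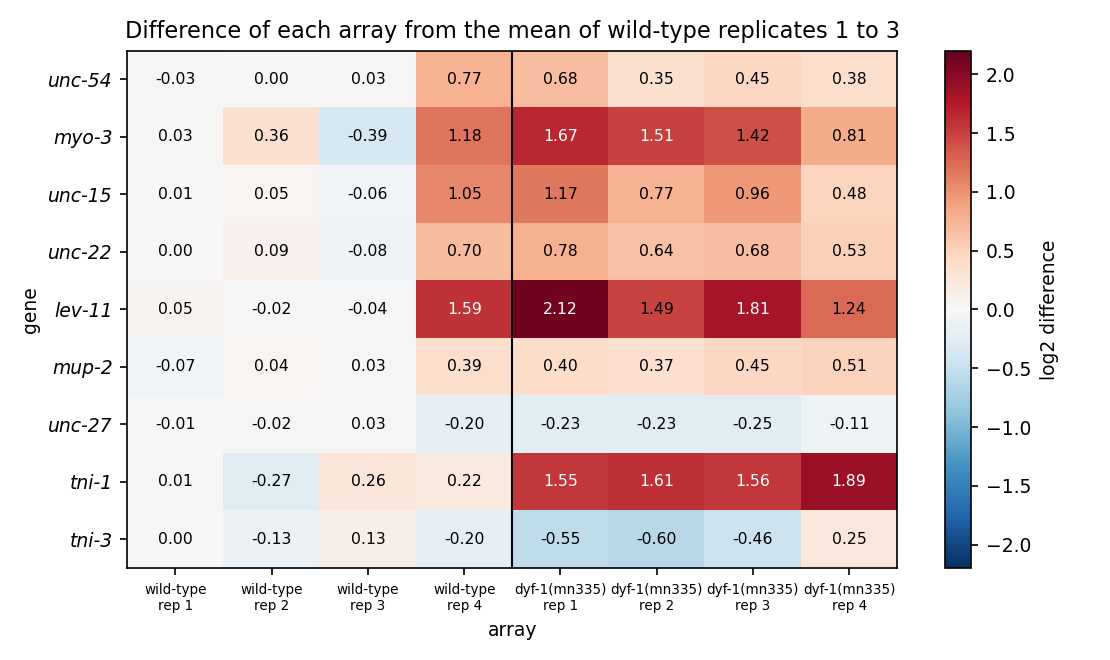
Difference in log2 value of each array (x axis) from the mean of wild-type replicates 1 to 3, for the 9 sarcomere genes (y axis), with red for higher and blue for lower values and the difference printed in each cell. Wild-type replicate 4 resembles the mutant arrays in *lev-11* (1.59) and *unc-22* (0.70) and not in *tni-1* (0.22).

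The other genes of the muscle cell were taken from 7 lists of 76 genes, of which 71 had a probe set of their own. Of these 71, 10 rose and 1 fell in *dyf-1(mn335)* at the same threshold, with a median log2 fold change of 0.46. At an unadjusted p under 0.05, 36 were higher and 6 lower. Over all 29317 probe sets, 6.56% were higher and 3.46% lower at the threshold, and 5574 higher and 5852 lower at the unadjusted p. Without wild-type replicate 4, 31 rose and 4 fell, where 13.3% of all probe sets were higher and 12.9% lower. Leaving out any other single array gave 1 to 10 higher and none lower. These shares are also the background of each list below. All 71 muscle genes had mean values of at least 5, where calls were more frequent. Over 8 arrays, 1 higher call in a list of 10 or more genes is near them. With each array centred on its median 6 rose and 2 fell. Then *unc-82* (adjusted p = 0.012 from limma), *dyb-1* (0.012) and *unc-38* (0.010), which passed without centring, missed the threshold. In the list of calcium release and uptake, 3 genes were then called higher, against 4 without centring. The actin genes *act-1* and *act-3*, perlecan *unc-52*, dystrophin *dys-1* and *lev-10* had no probe set of their own.

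Among the 7 muscle lists, that with the highest share of calls was that of calcium release and uptake, which couples excitation to contraction. Of 8 genes 4 rose and none fell (6 and none at an unadjusted p under 0.05), with a median of 0.71. The junctophilin gene *jph-1*, which holds the calcium store to the plasma membrane, rose by 1.17 (adjusted p = 0.0020 from limma). *ccb-1*, which encodes the beta subunit of voltage-gated calcium channels, rose by 1.63 (adjusted p = 0.0022 from limma). The channel genes *egl-19* (1.22, adjusted p = 0.0037) and *unc-36* (0.88, adjusted p = 0.0069), chosen after their values were seen, also passed in limma. The ryanodine receptor gene *unc-68* was at 0.55 (adjusted p = 0.043 from limma) and the calcium pump gene *sca-1* at 0.48 (adjusted p = 0.12 from limma). Of the 8 genes, 6 rose and none fell without wild-type replicate 4. With centring on array medians, and also with an intensity trend in the fit, 3 of the 8 were called higher. *jph-1* and *ccb-1* were among them in both settings, so that *egl-19* and *unc-36* did not both pass there. Several of these genes are also active in neurons.

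The other 4 lists of structural genes cover the filaments, their anchors and the membrane. Of 10 myosin light chain, M-line and assembly genes, the kinase gene *unc-82* rose by 1.03 (adjusted p = 0.0069 from limma) and none fell (unadjusted p under 0.05: 6 higher, 1 lower). Of 13 genes of actin, troponin C and T and thin filament regulators, the formin gene *fhod-1* rose by 1.29 (adjusted p = 0.0040 from limma) and none fell (5 and 2 at an unadjusted p under 0.05). Of 17 genes of the dense bodies and attachments, which anchor the thin filaments, *uig-1* rose by 1.38 (adjusted p = 0.0025 from limma) and none fell (6 and none at an unadjusted p under 0.05). Of 10 genes of the dystrophin complex, *dyc-1* (1.68, adjusted p = 0.0061) and the dystrobrevin gene *dyb-1* (0.87, adjusted p = 0.0056) rose in limma. The sarcoglycan gene *sgcb-1* fell by 0.84 (adjusted p = 0.0070 from limma), with mutant values of 4.88 to 4.97 in the dim range under 5. With an intensity trend in the fit *sgcb-1* missed the threshold (adjusted p = 0.012 from limma). In this list 7 genes had an unadjusted p under 0.05 on the higher side and 1 on the lower. The medians of these lists were 0.51, 0.15, 0.46 and 0.66. Without wild-type replicate 4, 6, 3, 8 and 4 genes of them rose and 1, 2, 0 and 1 fell.

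Of 10 muscle receptor genes, the nicotinic receptor gene *unc-38*, which neurons use too, rose by 0.89 (adjusted p = 0.0044 from limma) and none fell (5 and none at an unadjusted p under 0.05). When wild-type replicate 4 was left out, 3 of these 10 rose and none fell. The 3 genes of muscle transcription factors did not pass over 8 arrays. *hlh-1*, the worm gene of the MyoD family, was at -0.37 (adjusted p = 0.053 from limma), with 7.33 to 7.47 in the mutant and 7.59 to 7.85 in wild-type. *unc-120*, of the serum response factor family, was at 0.55 (adjusted p = 0.021 from limma), and without wild-type replicate 4 it passed at 0.61 (adjusted p = 0.0080 from limma). The third, *hnd-1*, was at -0.41 (adjusted p = 0.086 from limma). Of these 3 genes, 1 had a higher and 2 had a lower value with an unadjusted p under 0.05.

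Contractile genes of the pharynx, the feeding organ, also differed in where wild-type replicate 4 lay. The troponin T gene *tnt-4* rose by 1.10 (adjusted p = 0.0019 from limma) and the troponin I gene *tni-4* by 0.89 (adjusted p = 0.0060 from limma), and none of the 5 genes of this list fell (unadjusted p under 0.05: 4 higher, none lower). In *tnt-4* and in *tni-4*, wild-type replicate 4 was 0.27 above the mean of the other wild-type arrays, against 0.22 in *tni-1*. The pharyngeal myosins *myo-2* and *myo-1* were at 1.55 and 1.26 (adjusted p = 0.034 and 0.019 from limma), with wild-type replicate 4 higher by 1.71 and 1.17. The troponin C gene *tnc-2* was at 0.38 (adjusted p = 0.14 from limma), with wild-type replicate 4 lower than the others (-0.65). The summed linear level of the list was 6109 to 7198 in the mutant arrays and 2532 to 4511 in the wild-type arrays. With centring on array medians *tni-4* missed the threshold (adjusted p = 0.011 from limma). Without wild-type replicate 4, 4 of these 5 genes were called higher.

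Markers of other cell types moved as well, and their part in the values of the sarcomere genes was not tested. Of 12 neuron markers 7 rose and none fell (9 and none at an unadjusted p under 0.05), such as *rab-3* (1.82) and *ric-4* (1.25), and the summed linear level of the list was 10959 to 11148 in the mutant and 6452 to 8309.5 in wild-type. In the fit without wild-type replicate 4, 9 of them rose and none fell. With centring 5 neuron markers rose and with an intensity trend 6, and none fell in either setting. Of 10 epidermis markers, *qua-1* (0.96) and *dpy-7* (0.99) rose and the collagen gene *col-19* fell by 0.89, with summed levels of 9549 to 11493 and 6983 to 11270.1. In this list 9 of 10 log2 fold changes were above 0, with a median of 0.65 (unadjusted p under 0.05: 7 higher, 1 lower), and wild-type replicate 4 lay above the other wild-type arrays by a median of 0.68, against 0.70 for the sarcomere genes. Without that array 5 epidermis markers rose and 1 fell. *dpy-7* missed the threshold with an intensity trend, centring or cyclic loess, and *col-19* with cyclic loess (adjusted p = 0.012, 0.016, 0.015 and 0.010 from limma). Of 10 intestine markers, *ifb-2* (0.83) rose and *ges-1* (-1.21) and *act-5* (-0.77) fell, with summed levels of 6139 to 7118 and 6879 to 7707 (unadjusted p under 0.05: 2 higher, 3 lower). The counts were also 1 and 2 without wild-type replicate 4, and *ifb-2* missed the threshold with centring (adjusted p = 0.014 from limma). None of 13 germline markers passed over 8 arrays (unadjusted p under 0.05: none higher, 3 lower), with the lowest p-values for *him-3* (-0.72) and *pgl-1* (-0.39) and summed levels of 18282 to 25702 and 19765 to 28057. With wild-type replicate 4 left out, *him-3* alone passed, as lower (-0.94, adjusted p = 0.0012 from limma). None of 4 gonadal sheath markers passed over 8 arrays (2 and 2 at an unadjusted p under 0.05), with *ceh-18* at 1.36, *lim-7* at 1.00, *inx-8* at -0.77 and *inx-9* at -1.11 and summed levels of 1780.02 to 1874 and 1681 to 2293. In the same fit of 7 arrays, *ceh-18* passed as higher (adjusted p = 0.00071 from limma) and *inx-8* (adjusted p = 0.0017) and *inx-9* (adjusted p = 0.00079) as lower. With centring, *inx-9* passed as lower over 8 arrays (adjusted p = 0.0081 from limma). In each list all markers had mean values of at least 5 except *ftn-1* of the intestine and *bli-1* of the epidermis.

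**Figure D5:**
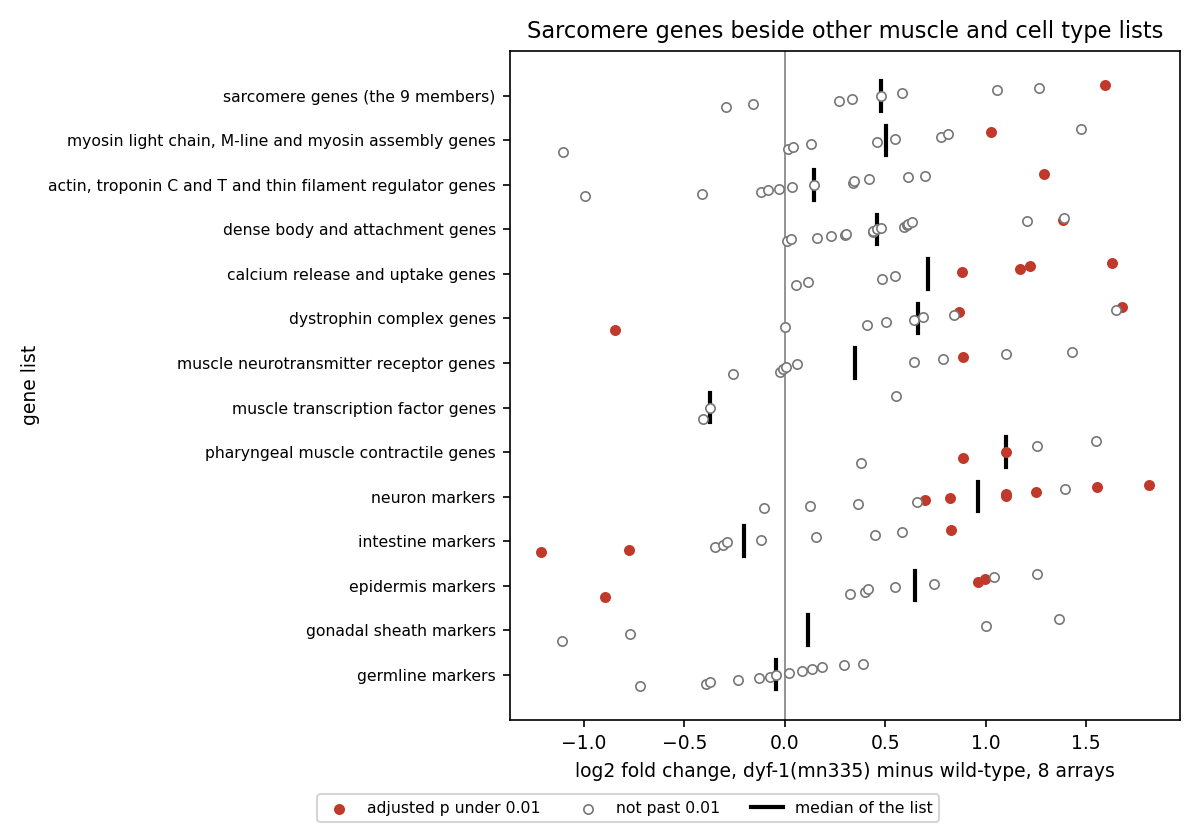
Log2 fold change over 8 arrays (x axis) of each gene in the sarcomere list, the other muscle lists and the lists of other cell types (y axis), with red points for genes past an adjusted p under 0.01, open points for the others and black bars for the median of each list. The median is 0.48 for the sarcomere genes, 0.71 for calcium release and uptake and -0.04 for the germline markers.

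The 5 genes whose profile over the 8 arrays was closest to the median profile of the members were *bet-1*, *sao-1*, *M01B12.4*, *lmp-1* and *ehs-1*, among 13859 genes with a mean log2 value of at least 5. Their root mean square differences from it were 0.034, 0.040, 0.043, 0.048 and 0.050 on the log2 scale. None of them belongs to the muscle lists and none was called. They were chosen by likeness over all 8 arrays. Their log2 fold changes of 0.42 to 0.50 therefore follow from the choice. So does the place of wild-type replicate 4, far nearer to the mutant arrays than to the other wild-type arrays. The median profile was taken from the members themselves and was almost that of *unc-22*, which lay at 0.0042 from it. The member farthest from it was *tni-1*, at 0.62.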

How the data were processed

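The authors read the scanned Affymetrix gene arrays with the R package oligo and applied RMA (background adjustment, quantile normalisation and median polish), and they deposited 1 log2 value per probe set and array for 8 arrays, which were used as given. Genes were named from the platform annotation, which gives 1 gene for 25546 of 29317 probe sets, several for 646 and none for 3125. By Entrez ID, 25495 of the former and all 9 members matched the RefSeq gene table. No genome build is given in the sources used here for the array, so no coordinates are printed. The genes and lists, and the tests on them, were chosen with earlier results of these data known.

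All probe sets were fitted with lmFit and eBayes (limma 3.58.1, R 4.3.3), *dyf-1(mn335)* against wild-type, two-sided and without covariates, with Benjamini-Hochberg adjustment across the whole table. Calls used an adjusted p under 0.01, as in the legends of the study. Single differences between paralogues were tested with exact permutation tests (scipy 1.17.1, Python 3.11.15), adjusted over 4 pairs. Figures used matplotlib 3.10.9. Alternatives were an adjusted p under 0.05, a filter on probe sets with a mean under 5 (15520 were kept), an intensity trend with robust spread, array weights, centring, cyclic loess, averaging of the probe sets of a gene, the replicate number as a block, leaving out each array and leaving out both replicate 4 arrays. The fit was tested on simulated data with independent, normally distributed values and no array that stood apart. That test therefore does not cover the effect of the replicate 4 arrays. The legends describe the 4 replicates per strain as biologically independent, while another description in the study gives 3 replicates for the arrays. All 4 deposited ones were used.

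Besides the members, named genes are up to 2 called genes per list and direction with the smallest adjusted p (the 2 smallest p-values where none was called), all genes of lists of 5 or fewer, and the 5 nearest profiles. *egl-19*, *unc-36*, *unc-68*, *sca-1*, *ftn-1*, *bli-1*, *mlc-1*, *mlc-2*, *act-2*, *act-4* and the mutated gene *dyf-1* were chosen outside this rule with their values in view.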

Additional observations from a re-analysis of the deposited data

Results flagged for a closer look

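Within a strain of 4 arrays, a gap between the outermost array and its neighbour, as a share of the whole range, above the critical value of Dixon's test was taken as a sample far from the others, which chance gives in about 1 of 20 groups. Of 18 groups of member values, 6 had such an array. In wild-type replicate 4 the gap was 0.922 of the range for *unc-54*, 0.905 for *unc-15* and 0.945 for *lev-11*. In mutant replicate 4 it was 0.877 for *unc-27*, 0.836 for *tni-1* and 0.835 for *tni-3*.

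Of all 90 groups looked at, which share the same arrays, 18 had such a gap, 10 of them at wild-type replicate 4 with the members included. The others at this array were *ccb-1* (0.866), *tnc-2* (0.834), *col-19* (0.876) and *inx-8* (0.952), and *sao-1* (0.850), *M01B12.4* (0.897) and *ehs-1* (0.913), which were taken for their likeness to the members. At mutant replicate 4 they were *dyc-1* (0.864) and *tni-4* (0.908), at mutant replicate 1 *unc-120* (0.845) and *act-5* (0.841), and at mutant replicate 3 *qua-1* (0.835).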

How the results depend on the processing

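No member reversed its direction under any alternative. 1 member was called higher in the fit of all 8 arrays, 3 at an adjusted p under 0.05, 6 with array weights and 5 with both replicate 4 arrays left out, and 1 to 5 when each array was left out in turn, with 5 without wild-type replicate 4. With both replicate 4 arrays left out 1 member, *tni-3*, was called lower, and in every other setting 0 were. *tni-1* was called in every setting, at adjusted p-values up to 0.0089 (with the replicate number as a block). The array weights were lowest for wild-type replicate 4 (0.198) and mutant replicate 4 (0.374). The median of the members ranged from 0.33 to 0.70.

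Over all probe sets, 1924 were called higher and 1015 lower. An adjusted p under 0.05 gave 3848 and 3419, array weights 5489 and 5391, and replicates 1 to 3 alone 4977 and 4781. Centring on array medians gave 1515 and 1653, turning the excess of higher over lower calls around. Leaving out 1 array gave 932 to 3893 higher and 324 to 3788 lower, with the highest counts without wild-type replicate 4. The counts were 1756 and 721 without mutant replicate 4 and lower by over 1.5 times without any other single array. The replicate block gave 236 and 79, with none of the other muscle genes called. The labels do not say whether the replicate numbers pair the samples. The deviations of same-numbered arrays from their strain means correlated at -0.31, 0.01, -0.20 and -0.57. Such correlations cannot exclude a shared preparation, so pairing was not settled.

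After cyclic loess the changes of *unc-27* minus *tni-1* (-1.71), *tni-1* minus *tni-3* (1.91) and *unc-54* minus *myo-3* (-0.74) kept their direction, at adjusted p-values of 0.0571, 0.0571 and 0.0762 in exact permutation tests. For the first 2 the unadjusted p stayed at 0.0286, so that the loss comes from the adjustment over 4 pairs, and for the last it rose to 0.0571. Without 1 array these differences were -1.86 to -1.63, 1.81 to 2.01 and -0.94 to -0.61, and *unc-27* minus *tni-3* was 0.06 to 0.30. With 3 arrays in a strain the smallest p these tests allow is 0.0571, so that none could pass. Every member has 1 probe set, so averaging probe sets changed none of their values.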

Other observations

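Some contractile genes with close paralogues lay in opposite directions. The myosin light chain gene *mlc-2* was at 9.65, 9.24, 9.69 and 9.64 in the mutant arrays and at 10.86, 10.92, 11.18 and 9.68 in the wild-type arrays. Its log2 fold change was -1.10 (adjusted p = 0.027 from limma), and it passed as lower without wild-type replicate 4 (-1.43, adjusted p = 0.00026). *mlc-1*, whose protein is nearly the same, was at 11.07, 10.49, 10.56 and 10.27 in the mutant and at 9.47, 9.41, 9.55 and 10.70 in wild-type. Its log2 fold change was 0.81 (adjusted p = 0.078 from limma), and it passed as higher without that array (1.12, adjusted p = 0.0020). In both genes wild-type replicate 4 lay nearer to the mutant arrays. The actin genes *act-4* (0.70, adjusted p = 0.048 from limma) and *act-2* (-0.99, adjusted p = 0.013 from limma) lay in opposite directions as well, and all mutant arrays of *act-2* (10.62 to 10.93) were below all wild-type arrays (11.05 to 12.06). Light chain and actin genes are close in sequence, and how far their probe sets detect each other was not tested.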
